A study of Homo sapiens with 15 samples.

Results

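A set of 8 genes whose RNA was low in A375 melanoma cells carrying VAV1 or RAC1 P29S was followed through every library: SERPINA3, HMCN1, FDCSP, FXYD3, SLC24A3, SLC24A2, ATOH8 and PKNOX2. They were picked by symbol because measured values in these same libraries put them among the genes most lowered by a transgene, so they are 8 of the 17360 gene symbols in the tables and not all the genes that were lowered. All 8 symbols were listed in both sets of libraries. The values that chose them are the transgene differences, which are given here as descriptions with no test. The response of VAV1 cells to saracatinib was not part of that choice and was tested, although it uses the same VAV1 vehicle libraries.

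A375 is an established human melanoma line with mutant BRAF. VAV1 is an exchange factor that loads small GTPases such as RAC1 with GTP, and RAC1 P29S is a melanoma mutant of RAC1 that exchanges nucleotide fast. Saracatinib inhibits SRC family kinases, which phosphorylate VAV1. RNA sequencing covered 5 groups of 3 libraries, which the submitters describe as biological triplicates: A375 overexpressing VAV1 with saracatinib, A375 overexpressing VAV1 with vehicle, A375 with an empty vector and vehicle, A375 with RAC1 P29S and no treatment, and A375 with an empty vector and no treatment. The labels give no dose or duration of saracatinib and do not say whether a line is a clone or a pool. An empty vector group with saracatinib was not analysed here, so the effect of the inhibitor without VAV1 cannot be told apart from its effect on what VAV1 does. For the 3 libraries titled RAC1 P29S, the genotype given in the labels is the empty vector, and the titles were followed. RAC1 separated with the titles, at 14.95, 14.89 and 14.95 on the log2 scale in RAC1 P29S libraries and 11.87, 11.90 and 11.88 in untreated empty vector libraries. VAV1 stood at 14.10, 14.16 and 14.11 with saracatinib, 13.93, 13.86 and 13.94 with vehicle, and 1.90, 2.49 and 2.28 in empty vector libraries with vehicle.

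The 8 genes belong to unrelated families. SERPINA3 encodes alpha-1-antichymotrypsin, a secreted inhibitor of serine proteases that liver cells release in the acute phase and that many tumours also make; HMCN1 encodes hemicentin-1, a very large fibulin-type protein of the extracellular matrix; and FDCSP encodes a small secreted peptide first found in follicular dendritic cells. FXYD3 encodes a single-pass membrane protein that modulates the Na,K-ATPase. SLC24A3 and SLC24A2 encode exchangers that export calcium and potassium in return for sodium. ATOH8 is a basic helix-loop-helix transcription factor described as a target of BMP signalling, and PKNOX2 is a homeodomain factor of the TALE class, whose members bind DNA together with PBX proteins.

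Every value below is a log2 of a normalized count plus 1 for 1 library, and every difference is a difference of such values, which understates the change of genes near 0. It is not scaled by transcript length, so levels are compared between groups for 1 gene and not between genes. The 9 vehicle and saracatinib libraries and the 6 untreated libraries were normalized apart, so their levels stand side by side without a test. A gene was tested where its normalized count reached 10 in at least 3 libraries, which 7 of the 8 genes did among the 9 libraries and all 8 did among the 6. FDCSP was the one left out. SLC24A2 passed through the empty vector libraries, since fewer than 3 of the others reached 10 in either experiment. P-values are from limma with Benjamini-Hochberg adjustment over all genes tested, and they measure only the spread among these cultures, since the labels do not say whether each came from its own transduction.

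Saracatinib split the 7 tested genes. SLC24A3, FXYD3, SERPINA3 and HMCN1 rose in VAV1 cells, ATOH8 fell, and PKNOX2 and SLC24A2 did not pass the test. Over all 14410 genes, 18.3% were called higher and 19.1% called lower with saracatinib, so 4 of 7 higher is a larger share than over all genes and 1 of 7 lower is not. The genes are not replicates of each other, and each had been chosen for a low value in the vehicle libraries that this comparison uses again. None of the 7 reached the empty vector level in any saracatinib library. The position of the saracatinib libraries between the VAV1 vehicle mean, set to 0%, and the empty vector vehicle mean, set to 100%, on the log2 scale averaged 86.0% for SLC24A3, 54.1% for FXYD3, 50.1% for SERPINA3, 25.7% for HMCN1, -2.06% for SLC24A2, -22.0% for PKNOX2 and -66.0% for ATOH8. Because RNA was taken from whole cultures, fewer cells with a transcript and less of it per cell cannot be told apart.

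**Figure D1:**
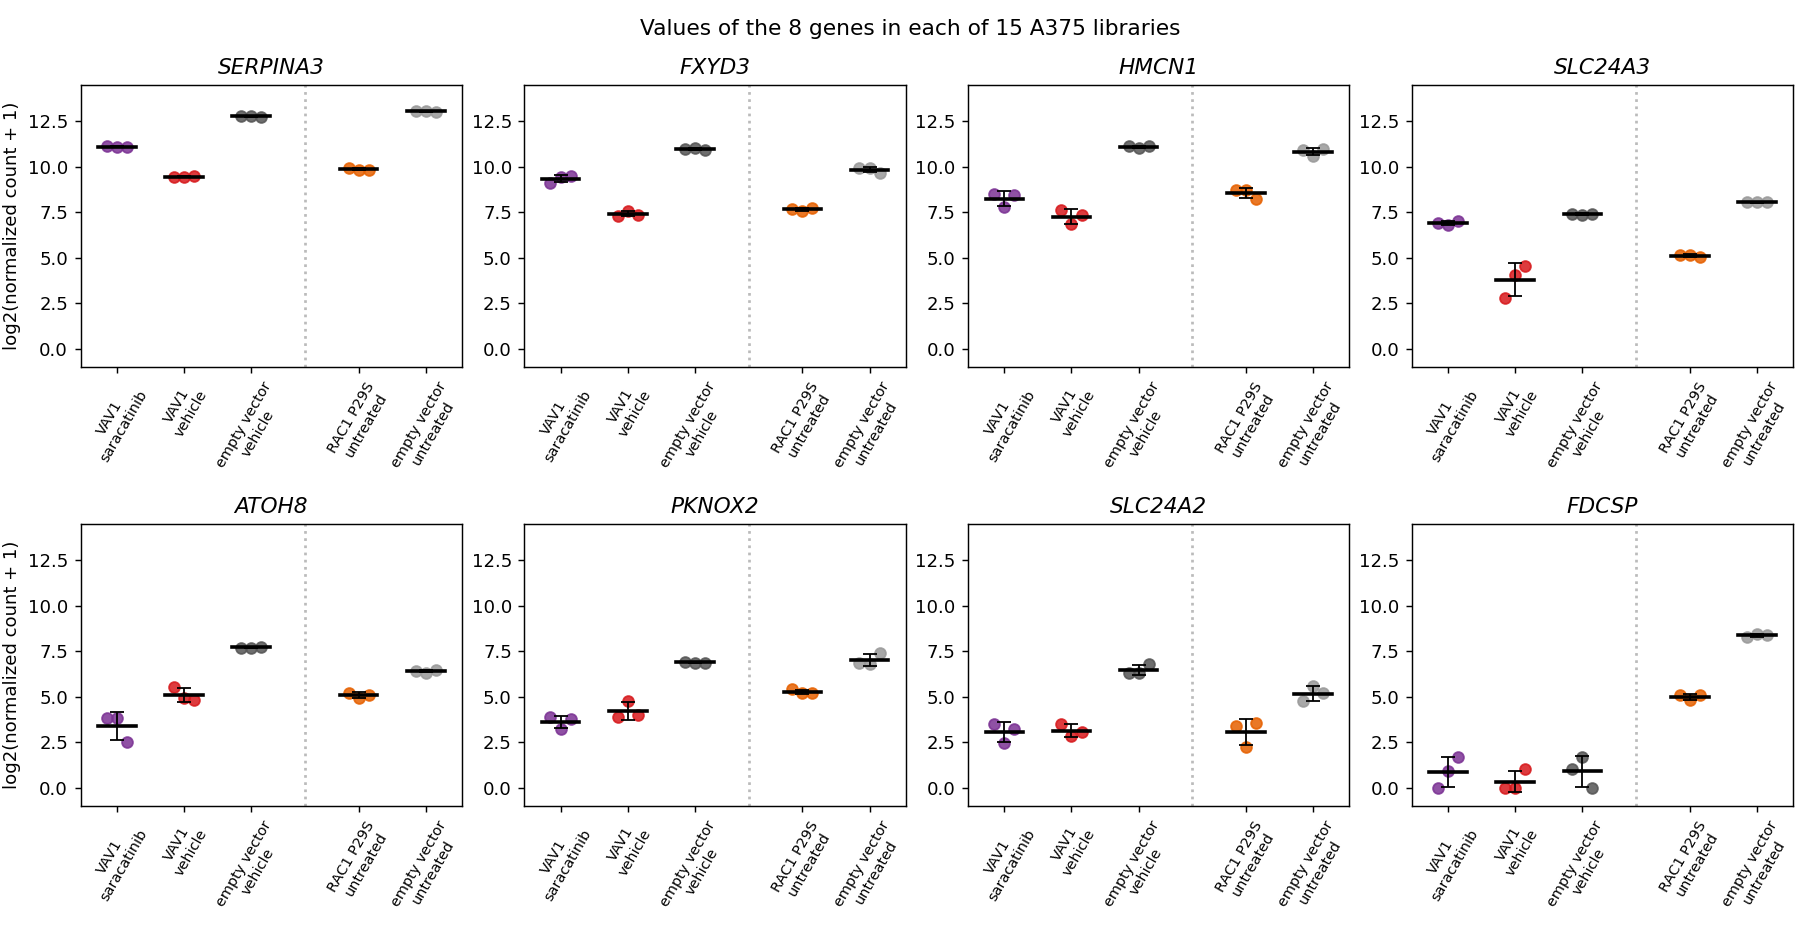
Log2 of the normalized count plus 1 (vertical axis) for each of the 8 genes in each library, with 1 panel per gene, points for libraries, bars for means and error bars for SD (n = 3). The dotted line parts the 2 experiments, which were normalized apart. In SLC24A3 the saracatinib points sit at 6.80 to 7.01, just under the empty vector points at 7.38 to 7.44, whereas in ATOH8 they sit under the VAV1 vehicle points.

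SERPINA3, the secreted protease inhibitor, measured 11.17, 11.12 and 11.07 in VAV1 cells with saracatinib, 9.45, 9.44 and 9.48 in VAV1 cells with vehicle, and 12.81, 12.77 and 12.75 in empty vector cells with vehicle. It measured 9.94, 9.83 and 9.84 in RAC1 P29S cells, against 13.07, 13.04 and 13.01 in untreated empty vector cells. The order was empty vector, then VAV1 with saracatinib, then VAV1 with vehicle, with no overlap between groups. The transgene differences that chose the gene were -3.32 ± 0.05 (SE) for VAV1 and -3.17 ± 0.05 for RAC1 P29S, 9.99-fold and 9.01-fold lower, and 25 and 11 tested genes were lower still. With saracatinib SERPINA3 was 1.66 ± 0.05 higher than with vehicle, a 3.17-fold difference (adjusted p = 5.51e-11, higher in 3 of 3 libraries). It remained 1.66 ± 0.05 lower than in empty vector cells (-1.66), so the saracatinib level lay midway on the log2 scale and its normalized count was 31.7% of the empty vector count, against 9.99% with vehicle. A second protein-coding locus of the annotation, AL049839.2, overlaps SERPINA3, and how the authors' quantification divided reads between them was not tested.

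Other serpins, the family of protease inhibitors that trap their target by a change of shape, moved in both directions. The gene lists given here and below leave out the 8 genes themselves. Of 34 serpins on the list, 15 were tested. With VAV1, 4 were higher and 8 lower (median difference -0.30), where 23.6% of all 14410 genes were called higher and 20.1% lower, with a median of 0.02. With saracatinib 10 were higher and 3 lower (median 0.68, against -0.01 over all genes). With RAC1 P29S, of 14 tested, 2 were higher and 5 lower (median -0.24, against a median near 0 over 14036 genes, of which 15.6% were called higher and 15.5% lower). SERPINE2, which encodes protease nexin-1, changed in the same directions as SERPINA3: 0.93 ± 0.03 with saracatinib, -1.68 ± 0.03 with VAV1 and -1.24 ± 0.04 with RAC1 P29S. SERPINF1, which encodes the antiangiogenic factor PEDF, was 1.53 ± 0.18 higher with saracatinib and had fallen by 2.23 ± 0.18 with VAV1. SERPINB7 changed in the opposite directions to SERPINA3, at -0.96 ± 0.14 with saracatinib, 3.70 ± 0.14 with VAV1 and 3.38 ± 0.20 with RAC1 P29S.

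SERPINA3 is also a classical acute-phase gene, induced in liver by IL6 through STAT3. Of 29 acute-phase and IL6-STAT3 genes, 15 were tested, and with saracatinib 11 were higher and 1 lower (median 0.55). With VAV1, 5 were higher and 6 lower (median -0.18), and with RAC1 P29S, of 14 tested, 3 were higher and 2 lower (median -0.03). Complement C3 was 2.58 ± 0.13 higher with saracatinib (adjusted p = 6.58e-09) and fell by 0.68 ± 0.13 with VAV1. CEBPD, an acute-phase transcription factor, was 1.59 ± 0.20 higher with saracatinib, whereas the STAT-induced kinase gene PIM1 was the one that was lower, at -1.20 ± 0.12. OSMR, a receptor chain for oncostatin M, was higher in each comparison: 0.58 ± 0.05 with saracatinib, 0.55 ± 0.05 with VAV1 and 0.55 ± 0.11 with RAC1 P29S. IL6 itself averaged 5.74 in VAV1 cells with saracatinib, 5.03 in VAV1 cells with vehicle and 0.19 in empty vector cells with vehicle. Its saracatinib difference of 0.71 ± 0.39 did not pass the test (adjusted p = 0.171). With VAV1 it was 4.84 ± 0.39 higher, opposite in sign to SERPINA3, and its part in the SERPINA3 values was not tested.

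HMCN1, the matrix gene, was the most lowered of the 7 tested genes with VAV1. It measured 8.50, 7.79 and 8.48 with saracatinib, 7.61, 6.84 and 7.36 in VAV1 cells with vehicle, and 11.14, 11.02 and 11.14 in empty vector cells. It measured 8.72, 8.73 and 8.26 in RAC1 P29S cells, against 10.91, 10.61 and 10.98 in untreated empty vector cells. The saracatinib libraries lay above the VAV1 vehicle libraries by a narrow gap, 7.79 against 7.61 at the nearest, and far below the empty vector. The differences were -3.83 ± 0.21 for VAV1 (14.2-fold lower, with 9 tested genes lower still) and -2.27 ± 0.14 for RAC1 P29S (4.81-fold lower). Saracatinib raised HMCN1 by 0.98 ± 0.21, or 1.98-fold (adjusted p = 0.00421, higher in 3 of 3 libraries), and the level stayed at -2.84 ± 0.21 from the empty vector. As a share of the empty vector count it was 14.2% with saracatinib and 7.16% with vehicle.

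Of 20 fibulin and basement membrane genes on the list, 18 were tested in the 9 libraries. With VAV1, 3 were higher and 10 lower (median -0.64); with saracatinib, 6 were higher and 3 lower (median 0.23); and with RAC1 P29S, of 16 tested, 4 were higher and 6 lower (median -0.06). SPARC, a collagen-binding matricellular protein gene, was 0.96 ± 0.03 higher with saracatinib and fell by 1.11 ± 0.03 with VAV1 and by 0.81 ± 0.04 with RAC1 P29S. NID1, which encodes the nidogen that links laminin to collagen IV, was 0.57 ± 0.05 higher with saracatinib and fell by 0.87 ± 0.05 with VAV1. The collagen IV chain genes COL4A1 fell by 1.37 ± 0.05 and COL4A2 fell by 1.33 ± 0.06 with VAV1. Both were lower again with saracatinib, at -0.29 ± 0.05 and -0.25 ± 0.06, opposite in sign to HMCN1. COL4A5 was 1.85 ± 0.28 higher with saracatinib, while the fibulin gene EFEMP1 fell by 0.99 ± 0.13. Most basement membrane genes that passed with VAV1 were lower, as HMCN1 was, by smaller amounts than HMCN1. HMCN1 was chosen for its low values, so its larger fall describes the choice.

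FDCSP was present in 1 experiment alone. It measured 5.07, 4.81 and 5.12 in RAC1 P29S cells, against 8.29, 8.46 and 8.36 in untreated empty vector cells, a difference of -3.37 ± 0.15 or 10.4-fold lower, with 8 tested genes lower still. In the other experiment it measured 0, 0.92 and 1.68 with saracatinib, 0, 0 and 1.01 in VAV1 cells with vehicle, and 1.04, 1.67 and 0 in empty vector cells with vehicle. All 9 of those libraries were near 0 and their groups overlapped, so the data hold no level for VAV1 to lower and FDCSP was not tested there. The empty vector cells of the 2 experiments thus stood at opposite ends for this gene, and treatment and normalization, which also differ between the experiments, cannot be told apart from it. The follicular dendritic cell marker CR2 was listed, at a normalized count of no more than 5.62 in any library. FDCSP lies among the secretory calcium-binding phosphoprotein genes, a list of 20 of which 2 were tested in each experiment. One of the 2 was called in each comparison, SPP1, the osteopontin gene, which was higher each time: 1.50 ± 0.08 with saracatinib, 0.90 ± 0.08 with VAV1 and 2.23 ± 0.21 with RAC1 P29S, where FDCSP was lower.

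FXYD3, the Na,K-ATPase regulator, measured 9.11, 9.45 and 9.49 in VAV1 cells with saracatinib, 7.33, 7.59 and 7.37 with vehicle, and 10.97, 11.06 and 10.93 in empty vector cells with vehicle. It measured 7.70, 7.57 and 7.74 in RAC1 P29S cells, against 9.92, 9.93 and 9.69 in untreated empty vector cells. The 3 groups of the first experiment did not overlap, and saracatinib was in the middle. The differences were -3.55 ± 0.10 for VAV1 (11.7-fold lower) and -2.17 ± 0.10 for RAC1 P29S (4.51-fold lower). Saracatinib raised FXYD3 by 1.92 ± 0.10, or 3.79-fold (adjusted p = 1.34e-08, higher in 3 of 3 libraries), and left it at -1.63 ± 0.10 from the empty vector. Its normalized count was 32.4% of the empty vector count with saracatinib and 8.49% with vehicle. A protein-coding locus that overlaps FXYD3 in the annotation, AC020907.6, may share reads with it, which was not tested.

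Among the 14 FXYD and Na,K-ATPase subunit genes on the list, 7 were tested in the 9 libraries and 5 in the 6. With VAV1, 1 was higher and 4 lower (median -0.78); with saracatinib, 1 was higher and none lower (median 0.01); with RAC1 P29S, none was higher and 3 lower (median -0.23). FXYD6, a brain-enriched regulator of the pump, fell by 2.59 ± 0.28 with VAV1 and by 2.09 ± 0.41 with RAC1 P29S, and its difference with saracatinib was -0.25 ± 0.28 (adjusted p = 0.518). ATP1B2, a beta subunit of glial cells, fell by 2.39 ± 0.52 with VAV1, whereas ATP1B1, the common beta subunit, rose by 0.38 ± 0.07. FXYD3 and FXYD6 were thus low with both transgenes, and the test passed for FXYD3 and not for FXYD6 with saracatinib; the difference between the 2 genes was not tested.

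SLC24A3, the exchanger, came closest to the empty vector level. It measured 6.92, 6.80 and 7.01 in VAV1 cells with saracatinib, 2.80, 4.04 and 4.55 with vehicle, and 7.44, 7.38 and 7.43 in empty vector cells with vehicle. It measured 5.18, 5.14 and 5.03 in RAC1 P29S cells, against 8.05, 8.09 and 8.05 in untreated empty vector cells. The VAV1 vehicle libraries were the widest of its groups, and the saracatinib libraries were all above them and all below the empty vector. The differences were -3.62 ± 0.34 for VAV1 (12.3-fold lower) and -2.95 ± 0.14 for RAC1 P29S (7.71-fold lower). Saracatinib raised SLC24A3 by 3.11 ± 0.34, or 8.65-fold (adjusted p = 1.41e-05, higher in 3 of 3 libraries), and by 2.18 with a pseudocount of 16 in place of 1. The remaining difference from the empty vector was -0.51 ± 0.34, with a 95% interval of -1.24 to 0.22. That SE is pooled over the 3 groups of the fit, including the wide VAV1 vehicle group (SD 0.90). The 2 groups compared had SDs of 0.10 with saracatinib and 0.03 in the empty vector and did not overlap, so the interval does not show full recovery. The normalized count was 70.3% of the empty vector count, against 8.61% with vehicle.

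SLC24A2, its paralog, did not follow it. It measured 3.49, 2.43 and 3.24 with saracatinib, 3.51, 2.82 and 3.04 in VAV1 cells with vehicle, and 6.31, 6.29 and 6.79 in empty vector cells with vehicle. It measured 3.37, 2.25 and 3.54 in RAC1 P29S cells, against 4.74, 5.57 and 5.21 in untreated empty vector cells. The saracatinib and VAV1 vehicle libraries overlapped, and both lay well below the empty vector. The differences were -3.34 ± 0.35 for VAV1 (10.1-fold lower) and -2.12 ± 0.41 for RAC1 P29S (4.34-fold lower). With saracatinib the difference was -0.07 ± 0.35 (adjusted p = 0.899), and its 95% interval of -0.83 to 0.69 allows a change of either sign. The mean normalized count was 7.69 with saracatinib and 7.89 with vehicle, under the minimum of 10, so depth limits what can be seen here.

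**Figure D2:**
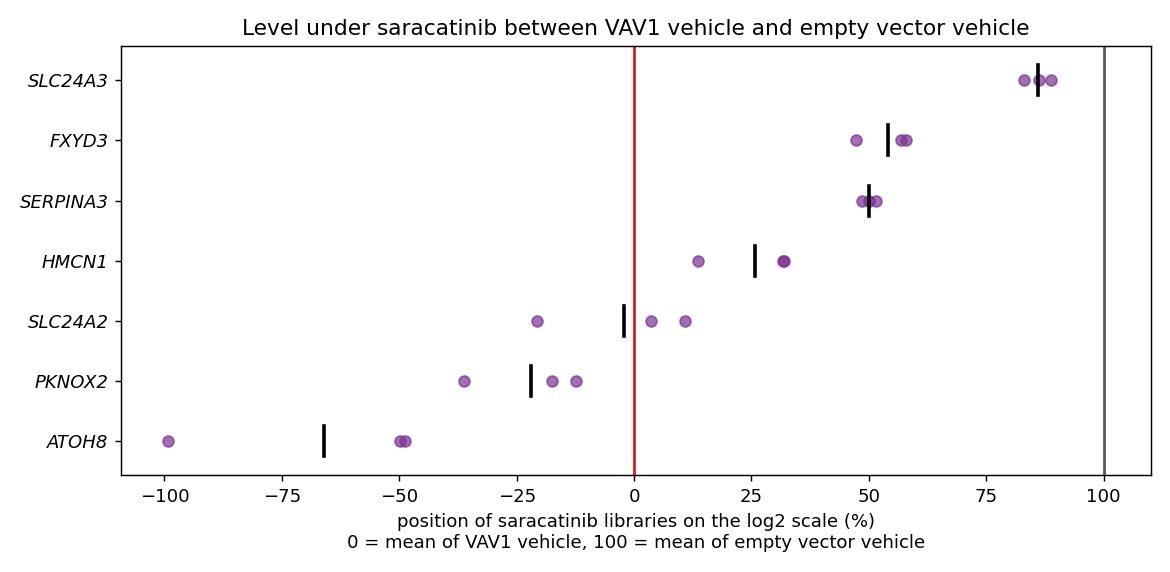
Position of each VAV1 saracatinib library (points) between the VAV1 vehicle mean (0%) and the empty vector vehicle mean (100%) on the log2 scale, for the 7 tested genes, with bars for means. SLC24A3 spans 83.1% to 88.7% and SERPINA3 48.6% to 51.6%, while ATOH8 lies at -99.3% to -48.8%, below the VAV1 vehicle mean.

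Promoter sequences from RefSeq (GRCh38.p14) were found for 4 of the 8 genes. The 250 bases before the start were searched on both strands for TEAD GGAATG, AP-1 TGANTCA, STAT TTCNNNGAA, SOX ACAAT, E-box CANNTG and SMAD GTCTAGAC or GGCGCC. FXYD3 held an E-box at -195 and a SOX match on the minus strand at -208, counted from the start, in a promoter with a GC content of 53.6%. SLC24A2 held none of the 7 motifs in a promoter with a GC content of 70%, against a median of 58% over 35116 promoters. SERPINA3 held E-boxes at -111 and -81 and ATOH8 at -215 and -55, with none of the other motifs. The SERPINA3 and ATOH8 windows overlap an annotated exon by 94 and 97 bases, and the ATOH8 window starts inside the span of the gene in GENCODE, so these are not wholly upstream of it. Of all promoters, 61.8% held the E-box, 24.6% SOX, 16.4% and 0.182% the SMAD motifs, 11.9% TEAD and 6.57% each AP-1 and STAT. The sequences of FXYD3, which saracatinib raised, and SLC24A2, which stayed low, are shown 5′ to 3′ on the gene's strand so that the 2 can be set side by side, with motif matches in capitals. The FXYD3 window is chr19:35117750-35117999 on the plus strand, inside the span of the gene in GENCODE, and the SLC24A2 window is chr9:19789038-19789287 on the minus strand.
FXYD3: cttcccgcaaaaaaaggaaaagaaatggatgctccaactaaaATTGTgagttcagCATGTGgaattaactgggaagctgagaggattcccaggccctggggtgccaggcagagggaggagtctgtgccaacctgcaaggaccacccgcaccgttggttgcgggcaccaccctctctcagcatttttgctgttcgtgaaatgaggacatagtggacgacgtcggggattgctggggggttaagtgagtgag
SLC24A2: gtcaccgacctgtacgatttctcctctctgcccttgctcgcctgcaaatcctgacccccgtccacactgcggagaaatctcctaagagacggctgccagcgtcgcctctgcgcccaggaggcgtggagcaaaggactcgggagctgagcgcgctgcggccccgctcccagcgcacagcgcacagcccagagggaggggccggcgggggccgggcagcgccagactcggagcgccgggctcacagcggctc
A match describes letters in the window, and no match says only that these letters are not in it.

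Of 11 genes for calcium exchangers and plasma membrane calcium pumps, 5 were tested in each experiment. With VAV1, 3 were higher and 1 lower (median 0.18); with saracatinib, 2 were higher and 2 lower (median 0.08); and with RAC1 P29S, 2 were higher and 2 lower (median -0.13). ATP2B4, a plasma membrane calcium pump, was 1.24 ± 0.05 higher with saracatinib and fell by 1.12 ± 0.05 with VAV1 and by 0.25 ± 0.06 with RAC1 P29S, the signs of SLC24A3. SLC8A1, the sodium-calcium exchanger of heart and other tissues, had the reverse signs: -0.81 ± 0.15 with saracatinib, 1.44 ± 0.15 with VAV1 and 1.47 ± 0.21 with RAC1 P29S. SLC8B1, the mitochondrial exchanger, had the same signs as SLC8A1, at -0.68 ± 0.15, 1.46 ± 0.15 and 0.86 ± 0.17. Genes of calcium export therefore moved both ways.

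ATOH8, the helix-loop-helix factor, was the one tested gene of the 8 that saracatinib lowered further. It measured 3.80, 3.83 and 2.52 in VAV1 cells with saracatinib, 5.56, 4.93 and 4.83 with vehicle, and 7.69, 7.69 and 7.75 in empty vector cells with vehicle. It measured 5.22, 4.91 and 5.11 in RAC1 P29S cells, against 6.41, 6.32 and 6.46 in untreated empty vector cells. No groups overlapped within an experiment, and the saracatinib group was the lowest. The differences were -2.60 ± 0.33 for VAV1 (6.08-fold lower) and -1.32 ± 0.19 for RAC1 P29S (2.49-fold lower), the smallest among the tested genes in each case, with 89 and 318 tested genes lower still. With saracatinib ATOH8 fell by 1.72 ± 0.33, or 3.29-fold (adjusted p = 0.00115, lower in 3 of 3 libraries), to -4.32 ± 0.33 from the empty vector. With a pseudocount of 16 in place of 1 the saracatinib difference was -0.93 and still passed the test. Its normalized count was 4.95% of the empty vector count with saracatinib and 16.5% with vehicle.

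The BMP and SMAD list was fixed around ATOH8 and held 24 genes, of which 22 were tested in the 9 libraries and 21 in the 6. With VAV1, 4 were higher and 8 lower (median -0.22); with saracatinib, 5 were higher and 4 lower (median -0.01); and with RAC1 P29S, 2 were higher and 8 lower (median -0.32). With saracatinib ID3 fell by 1.64 ± 0.09 (adjusted p = 1.84e-08) and ID1 by 0.76 ± 0.11 (adjusted p = 8.54e-05), both inhibitors of helix-loop-helix factors, and the inhibitory SMAD genes SMAD6 and SMAD7 fell by 1.49 ± 0.12 and 1.38 ± 0.21. ID3 and ID1 had also fallen with VAV1, by 0.74 ± 0.09 and 0.92 ± 0.11, whereas SMAD6 and SMAD7 differed by 0.17 ± 0.12 and 0.24 ± 0.21 with VAV1 and did not pass the test. SMAD7 was 0.57 ± 0.12 higher with RAC1 P29S (adjusted p = 0.00448), opposite in sign to ATOH8. The 5 that were higher with saracatinib were ID4, another ID gene, at 2.40 ± 0.55, the ligand genes BMP6 and BMP2 at 1.17 ± 0.19 and 0.76 ± 0.15, the transcription factor gene HEY1 at 0.98 ± 0.23, and BAMBI. BAMBI, a decoy receptor, was 1.04 ± 0.13 higher with saracatinib and fell by 2.08 ± 0.13 with VAV1 and fell by 1.80 ± 0.09 with RAC1 P29S. NOG, which encodes the BMP antagonist noggin, averaged 5.28 in VAV1 cells against 1.21 in empty vector cells, both with vehicle, and 5.44 in RAC1 P29S cells against 1.21 in untreated empty vector cells. Of 20 helix-loop-helix genes 4 were tested in each experiment, with none higher and 1 lower in each comparison (medians -0.32 with VAV1, -0.12 with saracatinib and -0.06 with RAC1 P29S).

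PKNOX2, the homeodomain factor, measured 3.88, 3.24 and 3.75 in VAV1 cells with saracatinib, 3.90, 4.75 and 3.98 with vehicle, and 6.92, 6.87 and 6.84 in empty vector cells with vehicle. It measured 5.41, 5.22 and 5.21 in RAC1 P29S cells, against 6.83, 6.80 and 7.41 in untreated empty vector cells. The differences were -2.67 ± 0.29 for VAV1 (6.35-fold lower) and -1.73 ± 0.20 for RAC1 P29S (3.32-fold lower). The saracatinib libraries lay just below the VAV1 vehicle libraries, 3.88 against 3.90 at the nearest. The difference of -0.59 ± 0.29 did not pass the test (adjusted p = 0.127), with a 95% interval of -1.20 to 0.03, and the level was -3.25 ± 0.29 from the empty vector. The upper bound lies below the difference of each of the 4 genes that rose.

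Of 17 TALE genes, 12 were tested in each experiment. With VAV1, 1 was higher and 7 lower (median -0.39); with saracatinib, 4 were higher and 1 lower (median -0.02); with RAC1 P29S, 2 were higher and 3 lower (median -0.11). TGIF1, a repressor that binds SMADs, was 0.73 ± 0.09 higher with saracatinib and fell by 0.62 ± 0.09 with VAV1 and by 0.62 ± 0.09 with RAC1 P29S. MEIS3 was 0.67 ± 0.15 higher with saracatinib and fell by 0.77 ± 0.15 with VAV1. IRX3 fell by 1.16 ± 0.20 with VAV1 and IRX5 by 1.57 ± 0.18 with RAC1 P29S. The transgene differences of PKNOX2 were larger than those of the TALE genes named here. PKNOX2 was chosen for its low values with a transgene, so this order describes the choice.

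**Figure D3:**
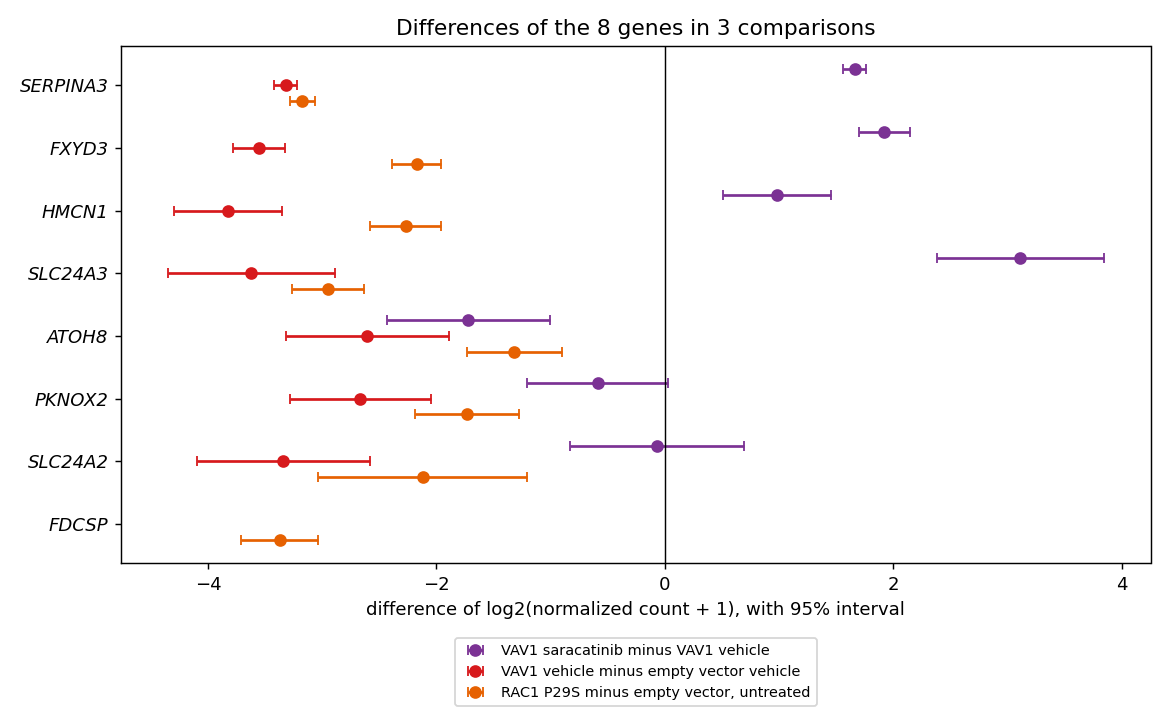
Log2 difference with its 95% interval (horizontal axis) for each gene: saracatinib against vehicle in VAV1 cells, VAV1 against empty vector with vehicle, and RAC1 P29S against untreated empty vector. The transgene differences, which chose the genes, all lie below 0, from -3.83 to -1.32, while the saracatinib differences run from -1.72 for ATOH8 to 3.11 for SLC24A3.

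None of the 8 genes was lost outright where it had been present. In VAV1 cells with vehicle the mean normalized counts of the 7 tested genes were 7.16% to 16.5% of the empty vector means, and in RAC1 P29S cells those of the 8 genes were 9.41% to 39.5% of the untreated empty vector means. In every one of these comparisons the transgene libraries lay below the empty vector libraries without overlap. The genes had been chosen for low values with at least 1 of the transgenes, so this describes the choice. The share of all genes without overlap was not counted. The 2 comparisons use separate empty vector libraries but the same parental line. ATOH8 kept the largest share under both transgenes, 16.5% and 39.5%. HMCN1 kept the smallest with VAV1, and FDCSP, which VAV1 could not be judged on, kept the smallest with RAC1 P29S.

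**Figure D4:**
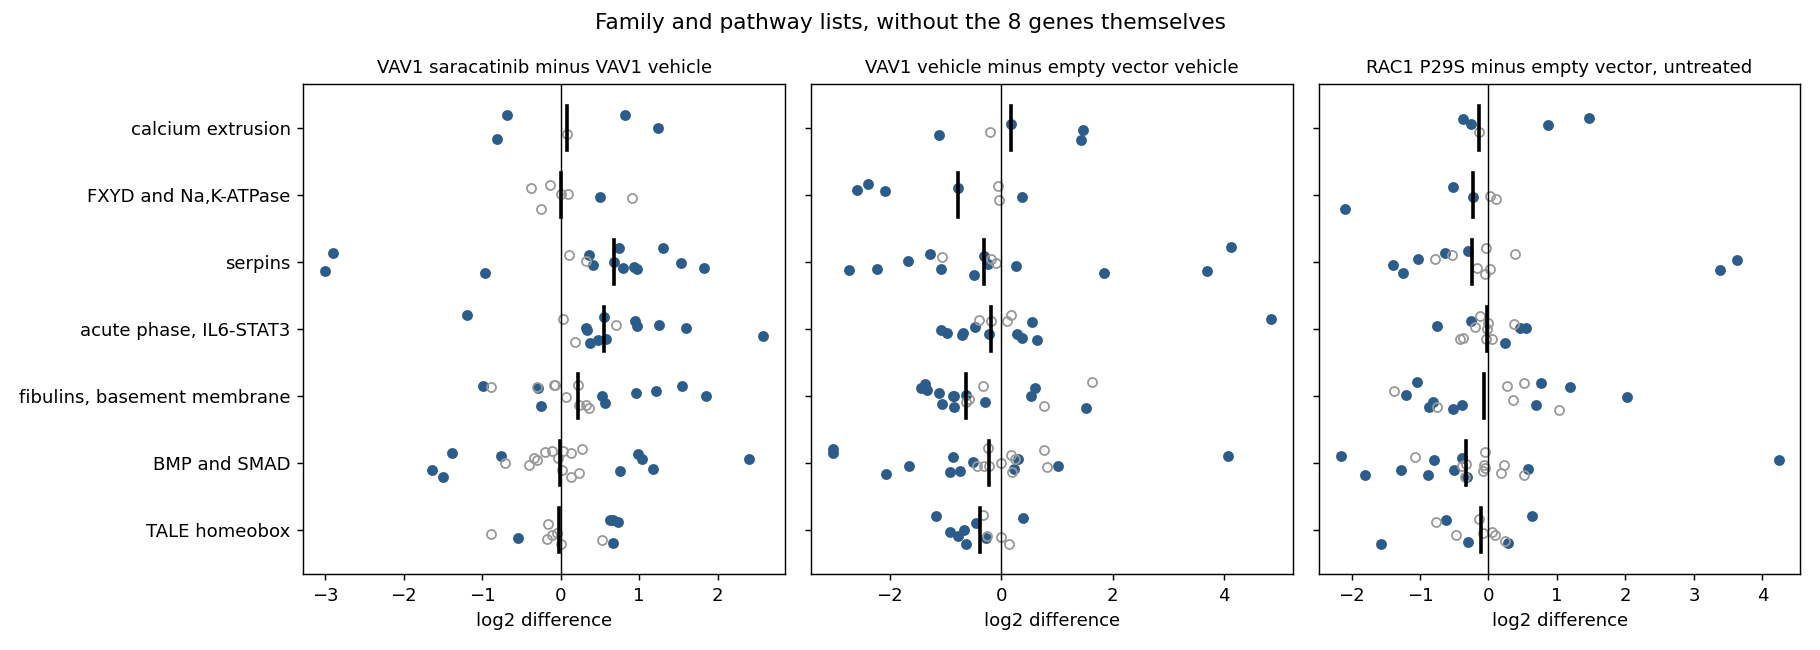
Log2 differences of the tested genes of 7 gene lists in the 3 comparisons (filled points past the limma test, open points not, bars at the median). The acute-phase and serpin lists have medians of 0.55 and 0.68 with saracatinib, whereas the BMP and SMAD list has a median of -0.01 with genes on both sides.

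The melanocyte markers on the list, 9 genes of which 5 were tested, were taken as a check of the line. SOX10, the neural crest and melanocyte factor, was the highest of them in every library. It was 0.63 higher with saracatinib and fell by 2.07 with VAV1 and by 1.10 with RAC1 P29S, and ERBB3 and S100B had the same signs, while MITF, the melanocyte master regulator, had the reverse signs: -1.09 with saracatinib, 1.57 with VAV1 and 1.23 with RAC1 P29S. In all, 3 were higher and 1 lower with saracatinib (median 0.63), 1 was higher and 3 lower with VAV1 (median -2.07), and 1 was higher and 3 lower with RAC1 P29S (median -1.10). The summed marker count was 5333 to 5539 with saracatinib, 4063 to 4195 in VAV1 cells with vehicle and 15423 to 15460 in empty vector cells, then 7305 to 7460 in RAC1 P29S cells and 16189 to 16818 in untreated empty vector cells. The pigment gene MLANA reached a normalized count of at most 20.9 and PMEL of at most 43.8, so the pigment markers were low in every group. The melanocyte sum thus followed the order of SERPINA3, FXYD3, HMCN1 and SLC24A3, and its part in their values was not tested.

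Markers of other cell types were low or rested on 1 or 2 genes. Of 8 epithelial markers the summed count was 299 to 306 with saracatinib, 235 to 289 in VAV1 cells with vehicle and 517 to 586 in empty vector cells, then 457 to 489 in RAC1 P29S cells and 515 to 554 in untreated empty vector cells, led by CLDN4, with CDH1 at no more than 6.79 in any library. CLDN4 and KRT14 were lower with VAV1 (-1.08 ± 0.11 and -1.28 ± 0.21), as FXYD3, a gene known from epithelia, was, while ELF3 was not called. With saracatinib, which raised FXYD3, CLDN4 and KRT14 did not pass the test (0.06 ± 0.11 and 0.07 ± 0.21). ELF3 was 2.31 ± 0.44 higher with saracatinib. The part of these markers in the FXYD3 values was not tested. With VAV1, none of 3 tested was higher and 2 lower (median -1.08); with saracatinib, 1 was higher and none lower (median 0.07); with RAC1 P29S, of 2 tested, none was higher and 1 lower (median -0.24). Of 6 haematopoietic markers the signal was CD68, a lysosomal gene, while the leukocyte gene PTPRC reached no more than 21.5 in any library. The 1 haematopoietic marker tested in the 9 libraries was higher with VAV1 and with saracatinib (1.21 and 1.11), and with RAC1 P29S 1 of 2 was higher and none lower (median 0.56). Of 6 fibroblast markers 4 were tested, none of which was called with VAV1 (median -0.21), 1 was higher and 1 lower with saracatinib (median 0.39), and 2 were higher and none lower with RAC1 P29S (median -0.33). Of 5 endothelial markers 4 were tested, with 1 higher and 1 lower with VAV1 (median -0.18), 2 higher and 1 lower with saracatinib (median 0.45) and, of 3, 1 higher and none lower with RAC1 P29S (median -0.51). Of 5 neural and glial markers 4 were tested, with none higher and 1 lower with VAV1 (median -0.44), 1 higher and none lower with saracatinib (median 0.44) and none higher and 2 lower with RAC1 P29S (median -0.41).

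The genes lie on 8 chromosomes, and their position was not used in choosing them. In GRCh38, with GENCODE release 29, SERPINA3 (ENSG00000196136.17) lies at chr14:94612377-94624055 on the plus strand, FXYD3 (ENSG00000089356.18) at chr19:35115879-35124324, HMCN1 (ENSG00000143341.11) at chr1:185734551-186190949 and SLC24A3 (ENSG00000185052.11) at chr20:19212646-19722937. ATOH8 (ENSG00000168874.12) lies at chr2:85751344-85788066, PKNOX2 (ENSG00000165495.15) at chr11:125164687-125433389 and FDCSP (ENSG00000181617.5) at chr4:70226071-70235252, all on the plus strand, and SLC24A2 (ENSG00000155886.11) at chr9:19507452-19786928 on the minus strand.

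The 5 nearest protein-coding genes on each side, 80 in all, served to show whether the low values extended along the chromosome. Of 49 tested in the 9 libraries, 11 (22.4%) were higher and 12 (24.5%) lower with VAV1 (median 0.02), and 11 were higher and 11 lower with saracatinib (22.4% each, median -0.03). Of 47 tested in the 6 libraries, 9 (19.1%) were higher and 7 (14.9%) lower with RAC1 P29S (median 0.04). These shares lie close to those over all genes. The lowest neighbour in both transgene comparisons was SERPINA5, the protein C inhibitor gene, 19.3 kb from SERPINA3, which fell by 2.73 ± 0.20 with VAV1 and by 1.39 ± 0.14 with RAC1 P29S, and whose difference with saracatinib was 0.33 ± 0.20 (adjusted p = 0.217). Beside FXYD3, LGI4, 0.189 kb away, fell by 2.09 ± 0.51 with VAV1, FXYD7 fell by 2.08 ± 0.51 and HPN fell by 1.90 ± 0.45. RIN2, a RAB5 exchange factor gene 34.7 kb from SLC24A3, went the other way, 1.32 ± 0.10 higher with VAV1 and 2.06 ± 0.11 higher with RAC1 P29S. Around FDCSP, 1 of 10 neighbours was tested, HTN1, and it was not called.

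**Figure D5:**
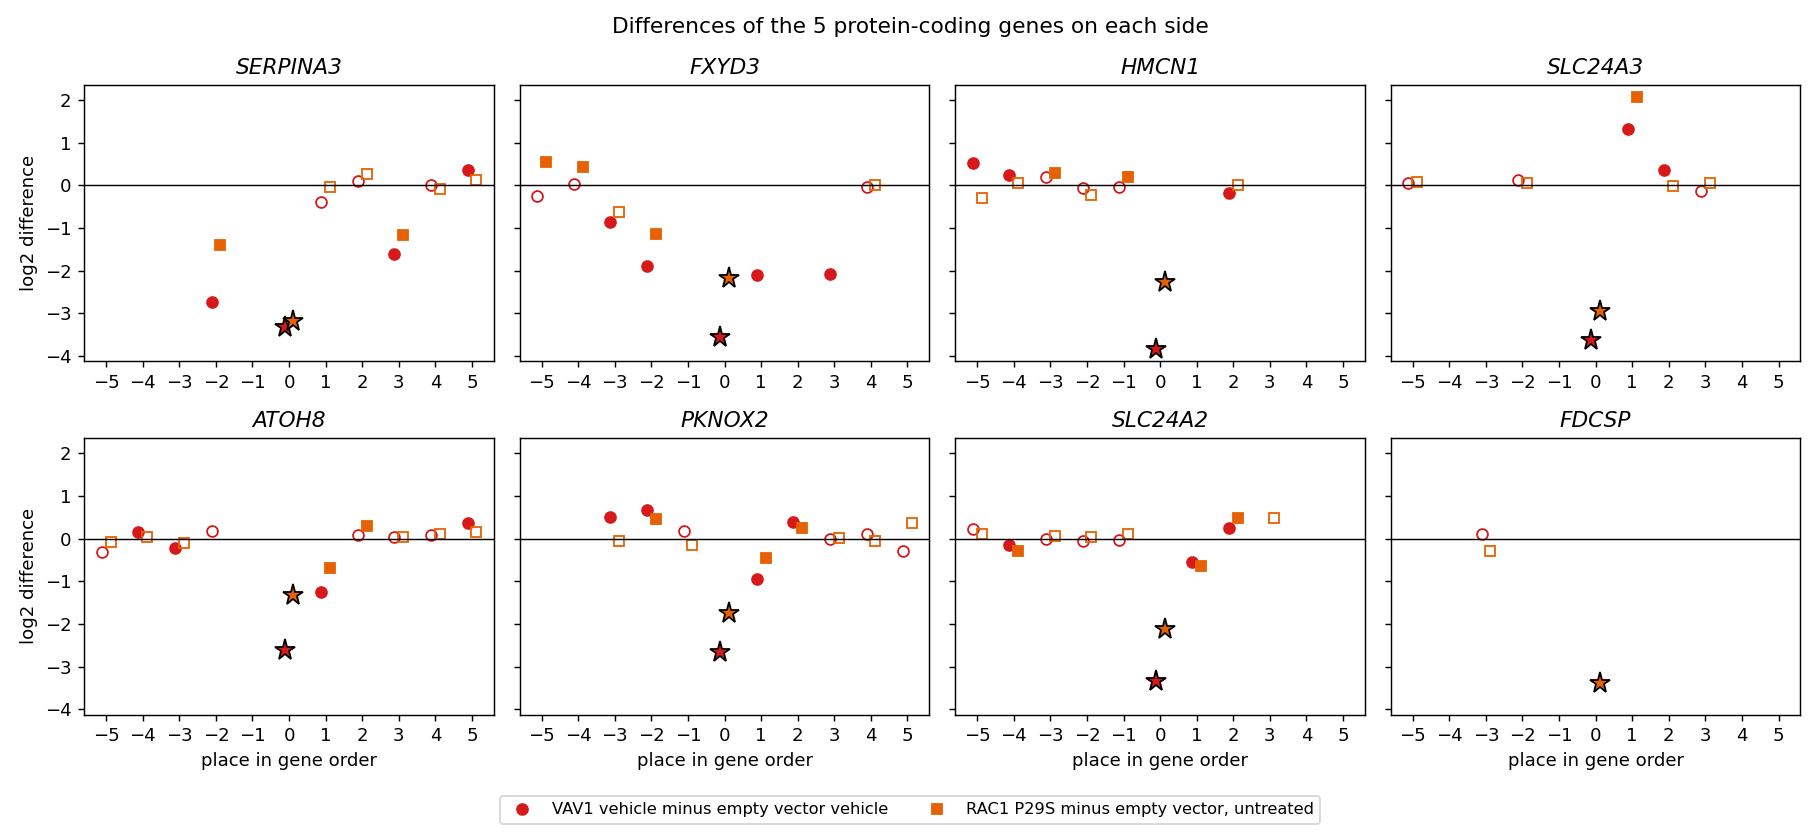
Log2 difference (vertical axis) of the 5 nearest protein-coding genes on each side of each of the 8 genes (horizontal axis, order along the chromosome), with circles for VAV1, squares for RAC1 P29S, filled symbols for genes past the limma test and stars for the chosen genes, which have no test. The stars lie lowest in their panels, which describes the choice of these genes for low values. The lowest of the neighbours is SERPINA5, at -2.73 with VAV1.

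The tested genes whose pattern lay nearest to each of the 8 were found by the root mean square difference of log2 values, each library taken against the empty vector mean of its experiment, over 15 libraries and 13810 genes. Nearest to SERPINA3 were SORCS1 (0.29) and ART3 (0.30), and nearest to FXYD3 were S100A1 (0.30) and ART3 (0.35). ART3 differed by 1.55 with saracatinib, -3.31 with VAV1 and -2.71 with RAC1 P29S. Nearest to HMCN1 were TFAP2B (0.44) and NFATC2 (0.45). Nearest to SLC24A3 were PDE3A (0.34) and TESC (0.40), and PDE3A, a cyclic nucleotide phosphodiesterase gene, differed by 2.81 with saracatinib, -3.74 with VAV1 and -3.45 with RAC1 P29S. SLC24A2 had IGFBP5 (0.47) and HMCN1 (0.53) nearest, and PKNOX2 had DCHS1 (0.36) and FLRT1 (0.40). ATOH8 had the most distant neighbours, DCHS1 (0.66) and PKNOX2 (0.68), and with saracatinib DCHS1 differed by -0.35 and PKNOX2 by -0.59, against -1.72 for ATOH8. For FDCSP, over the 6 untreated libraries and 14036 genes, they were SERPINA3 (0.17) and PDE3A (0.22).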

How the data were processed

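RNA of 15 A375 libraries was sequenced after a TruSeq preparation, per the labels. The authors deposited 1 table per library of gene symbols with log2 values, read from the values as the log2 of a normalized count plus 1, since the tables have no header. The submitters' processing notes name kallisto, DESeq2 and GRCh38, and versions are not given in the sources used here. With the log undone, libraries summed to 14443918 to 16262759 normalized counts; whole read counts were not recovered, so no counting interval is given. Values of 2 libraries correlated at 0.981 to 0.987 within groups and 0.942 to 0.967 between groups.

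Groups follow the titles. limma 3.58.1 in R 4.3.3 was fitted with 1 mean per group, trend and robust empirical Bayes, two-sided, to the 9 vehicle and saracatinib libraries (14410 genes) and to the 6 untreated ones (14036 genes), for genes whose normalized count reached 10 in 3 or more libraries. An adjusted p under 0.05 passed. The method was tested on simulated data. Values after ± are SE.

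The 8 genes and the gene lists (family, pathway and cell type markers) were chosen with earlier results of these data known. Named are the 8 genes, VAV1, RAC1, up to 4 genes per list and comparison with the smallest adjusted p, neighbours past the test and the 2 nearest patterns per gene; SMAD7, ID4, BMP2 and HEY1 were named after their values were seen, and so were the marker genes given by level. Some genes that the rule would name are not reported here. Alternatives were median-of-ratios and quantile scaling, pseudocounts of 4 and 16, no filter and a filter of 50, only the compared groups, no trend, a replicate block and leaving out each library.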

Additional observations from a re-analysis of the deposited data

How the results depend on the processing

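All counts of called genes stayed within 1.5 times the values above under each alternative tried. SERPINA3, FXYD3, HMCN1, SLC24A3 and ATOH8 passed the saracatinib test under 18 of 18 alternatives each. PKNOX2 passed under none, with -0.74 to -0.32 when 1 library was left out (adjusted p 0.0876 to 0.428) and -0.30 with a pseudocount of 16. SLC24A2 changed sign, from -0.29 to 0.24 when 1 library was left out, around -0.07 over all libraries, and passed in no case; it was 0.24 without saracatinib replicate 2 and 0.12 without VAV1 vehicle replicate 1. SLC24A2 entered 17 alternatives with saracatinib, all but the one with only the compared groups. With RAC1 P29S it entered 13, all but the filter of 50. With a pseudocount of 16 the saracatinib differences were 2.18 for SLC24A3, against 3.11, and -0.93 for ATOH8. With VAV1 those of SLC24A3, ATOH8, PKNOX2 and SLC24A2 moved to -2.64, -2.17, -1.97 and -2.12, and with RAC1 P29S those of SLC24A3, ATOH8, SLC24A2 and FDCSP moved to -2.51, -1.02, -1.11 and -2.88. FDCSP entered only without a filter, at 0.53 with saracatinib (adjusted p = 0.640) and -0.57 with VAV1. Replicate numbers do not pair the libraries, since the 12 correlations of same-numbered residuals ran from -0.0547 to 0.0125. With a replicate block, 2478 genes were called higher and 2583 lower with saracatinib, and no call among the 8 genes changed. The low levels of SLC24A2, PKNOX2 and FDCSP and groups of 3 libraries limit what can be seen. So do the low levels of ATOH8 with saracatinib and of SLC24A3 in VAV1 cells with vehicle. Their mean normalized counts there were 10.3 and 14.6, near the minimum of 10.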
